A study of Homo sapiens with 8 samples.

Results

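The genes described here are long intergenic noncoding RNA genes that carry a LINC symbol followed by a number and that were expressed in HCT116, a line of human colorectal cancer cells. A gene was taken when its sense-strand count averaged at least 10 over the 8 libraries of the study, and LINC01619 was left out by the rule. This gave 136 of the other 2201 LINC symbols among the 78932 gene identifiers counted. The genes were chosen by the mean count over both treatments, so their levels are a description, whereas the direction of the difference between treatments was not used in choosing them. Polyadenylated RNA was read at its 3′ ends in cells that all carried dTAG-NUDT21, a degradation tag on NUDT21. In 4 libraries the cells had received DMSO and JTE-607, and in the other 4 they had received dTAGV1 and JTE-607. The groups are called DMSO and dTAGV1 below, and JTE-607 was present in both. None of the 8 libraries lacked JTE-607, so the comparison asks which RNA levels differed with dTAGV1 while JTE-607 was present. The labels do not give doses, times or the number of clones, and they do not say that replicates came from separate cultures. The p-values therefore measure the spread between these libraries, which may be technical.

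LINC symbols are given to long noncoding genes between protein-coding genes that have no name from a known function. Their transcripts are usually capped, spliced and polyadenylated like mRNAs, but many are kept at low levels by early termination and by decay in the nucleus. The product of NUDT21 belongs to cleavage factor Im, a complex that recognises UGUA ahead of poly(A) sites in nascent RNA and bears on which site is used. JTE-607 inhibits CPSF73, the endonuclease that cleaves nascent RNA at poly(A) sites. dTAGV1 is a small molecule that brings tagged proteins to an E3 ligase for degradation, and DMSO is its solvent.

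An annotated 3′ end is a place where reads primed on poly(A) tails would be counted for a gene. The last 100 bases are shown for 3 of the genes with the largest increases and 3 with the largest decreases, since they hold, or lack, the letters by which poly(A) sites are usually recognised. They are written 5′ to 3′ on the strand of the gene, from GENCODE 29 transcripts on GRCh38. For each gene the transcript with the most distal 3′ end was used, and any other annotated ends are not shown. LINC03040, the largest decrease, was passed over because an annotated untranslated region lay in its window. LINC02964 was passed over for want of a GENCODE 29 entry. Capitals mark AATAAA or ATTAAA, the hexamers that bind the cleavage complex, and TGTA, the DNA form of the cleavage factor Im motif. The first 3 genes rose with dTAGV1 and the last 3 fell.
LINC02322: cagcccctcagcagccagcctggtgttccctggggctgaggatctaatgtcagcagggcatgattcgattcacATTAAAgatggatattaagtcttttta
LINC01909: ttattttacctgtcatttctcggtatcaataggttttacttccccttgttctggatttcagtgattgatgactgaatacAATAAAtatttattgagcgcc
LINC02818: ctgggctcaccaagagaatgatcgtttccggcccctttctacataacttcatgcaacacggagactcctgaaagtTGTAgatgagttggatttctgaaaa
LINC02757: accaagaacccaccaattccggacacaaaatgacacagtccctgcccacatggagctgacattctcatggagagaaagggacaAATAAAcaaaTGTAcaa
LINC01515: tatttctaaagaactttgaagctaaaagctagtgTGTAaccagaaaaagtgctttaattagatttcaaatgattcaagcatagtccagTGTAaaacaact
LINC01764: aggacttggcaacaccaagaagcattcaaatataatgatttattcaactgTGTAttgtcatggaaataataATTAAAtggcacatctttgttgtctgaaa
LINC02322 (chr14:60323808-60323907, plus strand) has ATTAAA starting 27 bases before the end and no TGTA in the window. LINC01909 (chr18:70352360-70352459, plus strand) has AATAAA at 21 bases and no TGTA. LINC02818 (chr1:179829609-179829708, minus strand) has neither hexamer, and its TGTA starts 25 bases before the end. LINC02757 (chr11:76607853-76607952, minus strand) has AATAAA at 17 bases and TGTA at 7, downstream of the hexamer. LINC01515 (chr10:65768736-65768835, plus strand) has TGTA at 66 and at 12 bases with neither hexamer. LINC01764 (chr19:15827045-15827144, minus strand) has TGTA at 50 bases, upstream of ATTAAA at 29.

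Over the 130 genes with a GENCODE 29 entry, AATAAA or ATTAAA was present in this window on the sense strand in 87 (66.9%), and TGTA in 60 (46.2%). The same shares over 12054 tested genes of all kinds were 74.7% and 51.7%, and over 387 tested lincRNA genes they were 63.3% and 45.7%. TGTA was present in 26 of the 57 genes that rose (45.6%), in 7 of the 14 that fell (50%) and in 25 of the 53 that were not called (47.2%). At least 2 copies of TGTA were present in 2 of the 57 that rose, in 4 of the 14 that fell and in 7 of the 53 not called, against 19.3% of all tested genes and 12.9% of tested lincRNA genes. In windows of 50 bases none of the 14 genes that fell had 2 copies, and these differences were not tested. Only the most distal annotated 3′ end of each gene was searched. A match is not a measured poly(A) site, and which site the reads came from was not analysed here. In the RefSeq promoter windows of GRCh38.p14, which surround the start of each gene, 82 of the 136 genes were found. On either strand, TATAAA was present in 9.76% of them against 11.5% of all promoters in that table, CCAAT in 51.2% against 34.6%, and GGGCGG in 42.7% against 45%.

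Libraries held 8649238 to 9977205 reads, of which 3447842 to 4291256 fell on the sense strand of a gene. NUDT21 mRNA had 104, 139, 131 and 129 counts with DMSO and 34, 29, 15 and 43 with dTAGV1. Degradation of the tagged protein is what dTAGV1 is given for, and protein was not measured, so the mRNA is only a description. The HCT116 label was checked against 7 epithelial markers, of which 6 were detected and CDX1 was at 0 in every library. Of the 6, VIL1 had at most 3 counts in any library and was thus nearly absent. The summed level of the 7 was 1010 to 1170 counts per 1000000 (CPM) with DMSO and 855 to 951 with dTAGV1. Nearly all of it came from EPCAM, KRT8, KRT18, CDH1 and CLDN4. Leukocyte markers summed to at most 2.55 CPM in any library and endothelial markers to at most 2.93. Of the fibroblast markers, COL3A1 and DCN were at 0 and the sum, all of it COL1A1, was 15.4 to 19.9 CPM with DMSO and 11.2 to 15 with dTAGV1. In bulk RNA, fewer cells of a type and less RNA per cell cannot be told apart. Reads that fit no gene on the sense strand include those on the opposite strand of a gene. They made up 32.3% ± 1.55 of the uniquely mapped reads in DMSO libraries and 36.6% ± 0.687 in dTAGV1 libraries (SD, n = 4 each). Mitochondrial genes took 8.34% ± 0.265 and 9.88% ± 0.49 of counted reads. Both shares differed without overlap (2-sided exact permutation test over libraries, p = 0.0286 each, Benjamini-Hochberg adjusted p = 0.0286 over the 2 shares, the smallest value the design allows). Without DMSO replicate 1 or 4, each left out in turn, the adjusted p of both shares was 0.0571 in the same exact permutation test. In the epithelial sum KRT8, KRT18 and CLDN4 fell, EPCAM rose from 273 to 331 CPM, and CDH1 was at 57.9 and 58.4 CPM. Both shares moved with the treatment, and their part in the results below was not tested.

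The 136 genes were mostly at low levels. Their mean counts ran from 10.1 for LINC03072 to 362 for LINC00342, and 121 of them were under 100. The rule's threshold had LINC02918 and LINC01072 (both 9.62) and LINC01355 (9.75) just below it, and LINC03072 (10.12), LINC01098 (10.25) and LINC02080 (10.25) just above. All 136 had at least 1 count in every library. Between replicates, the median coefficient of variation of genes with a mean under 100 was 22.2% with DMSO and 21% with dTAGV1, where counting error alone gives 21.2% and 19.7%. For the 15 genes of mean 100 or more it was 9.74% and 9.16%. The filter on low counts kept 130 genes for testing. LINC00339, LINC01305, LINC02614, LINC02516, LINC03072 and LINC02080 were not tested.

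More of these genes were higher than lower with dTAGV1. Summed over the 136, their level was 1670, 1720, 1610 and 1670 CPM in DMSO replicates 1 to 4, and 2070, 2120, 2060 and 2080 CPM in dTAGV1 replicates 1 to 4. Every dTAGV1 library was above every DMSO library in this sum, which is given without a test because the genes were chosen with results known. Of the 130 tested, 75 passed the threshold of 0.05 on the Benjamini-Hochberg adjusted p of the edgeR quasi-likelihood test, 57.7% against 57.9% over all 12618 tested genes. The share of genes called was thus near the background, while the split by direction was not even. Of the 75, 60 were higher and 15 lower, which are 46.2% and 11.5% of those tested, against 29.4% higher and 28.5% lower over all genes. The 130 include genes that could pass the filter through the group in which they were high. Among the 108 genes with a mean of at least 10 in both groups, 47 were higher (43.5%) and 12 lower (11.1%). A call with a change of more than 2-fold was made for 27 genes that rose (20.8%, against 7.35% of all genes) and 9 that fell (6.92%, against 9.23%). Of these, 15 that rose (13.9%) and 6 that fell (5.56%) were among the 108 genes with a mean of at least 10 in both groups. The 2 groups of libraries did not overlap for 62 genes (47.7%, against 50.9% of all genes). The median log2 fold change of the 130 was 0.37, with quartiles of -0.15 and 0.85, and that of all tested genes was 0.01, with quartiles of -0.43 and 0.42. The scaling between libraries sets the middle of all tested genes near no change, so higher and lower are relative to those genes. Calls under library-size scaling are given in the last paragraph. The split between higher and lower calls was not tested as such.

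**Figure D1:**
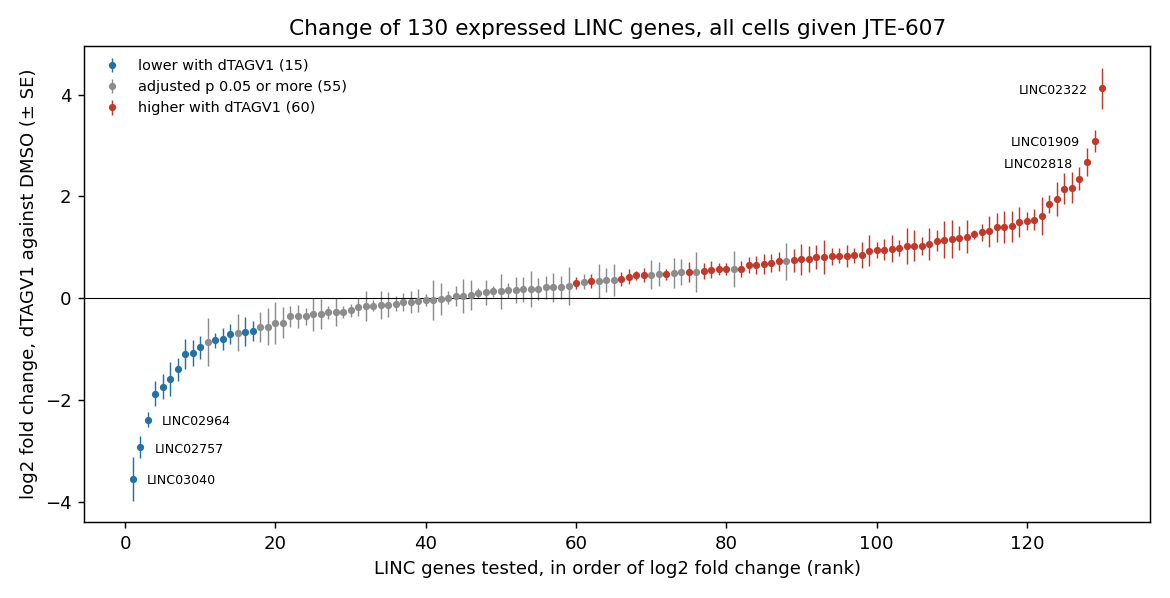
Log2 fold change with dTAGV1 against DMSO (y axis, error bars are standard errors) of the 130 tested LINC genes in rank order (x axis), with colours for genes called higher, called lower or not called. The values run from -3.55 for LINC03040 to 4.12 for LINC02322, and 60 genes were called higher against 15 lower.

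Low counts weigh on this list, because a gene near the threshold can enter through the treatment in which it is high. Where both group means were at least 10, 108 genes were tested, of which 47 were higher and 12 lower, with a median log2 fold change of 0.33. Where the lower group mean was under 10, 22 of 28 genes were tested and 13 were higher and 3 lower, with a median of 1.09. Those genes could pass the filter through the group in which they were high, so nothing is read from their count. Among the 15 genes of mean count 100 or more, 7 were higher and 1 lower, with a median of 0.13, where 64.4% of all tested genes of that count were called, 34.6% higher and 29.8% lower. Among the other 115, 53 were higher (46.1%) and 14 lower (12.2%), while 51.3% of all tested genes with a mean count of 10 to 100 were called, 24% higher and 27.3% lower. The 115 include genes whose lower group mean was under 10, so their share of higher calls is not read against the background. Of the 108 with both means at least 10, 43.5% were higher and 11.1% lower. Over all tested genes, to which that limit was not applied, 29.4% were higher and 28.5% lower. The 15 genes of mean 100 or more are too few to compare with theirs. Their median of 0.13 was smaller than the 0.33 of the 108.

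**Figure D2:**
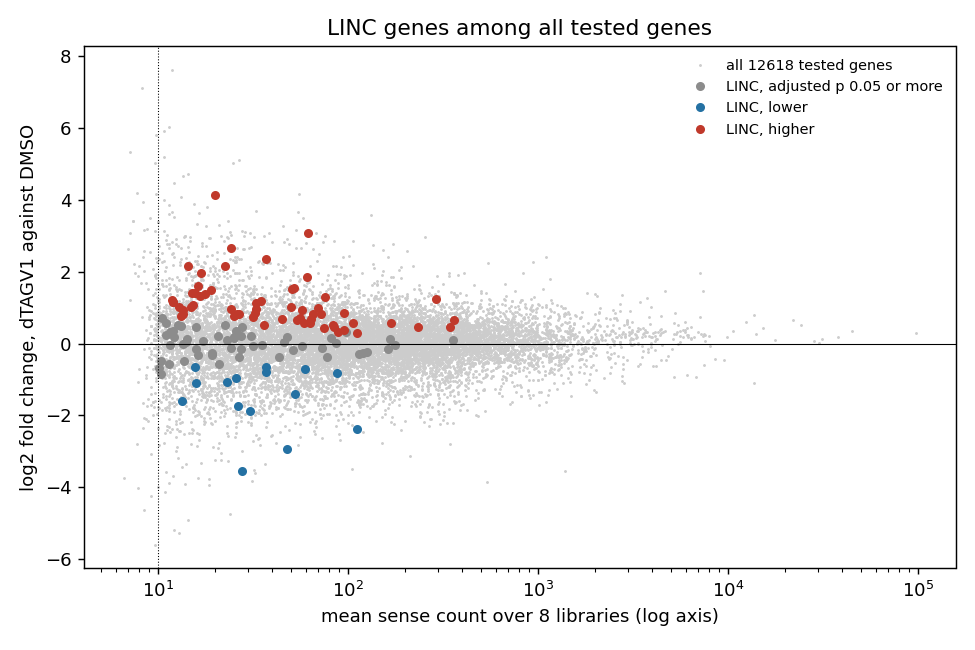
Log2 fold change with dTAGV1 against DMSO (y axis) by the mean sense count over the 8 libraries (x axis, log scale) for all 12618 tested genes (grey) and the 130 LINC genes, coloured by call. The dotted line marks a mean count of 10, and most of the LINC genes lie between 10 and 100 counts.

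Among the 10 largest increases with no overlap between groups, LINC02322 (ENSG00000258556, chr14:60323236-60323907, plus strand, 2 exons) moved furthest. Its level was 0.273, 0.482, 1.33 and 0.247 CPM with DMSO and 11.6, 15.1, 9.13 and 6.86 CPM with dTAGV1. The DMSO libraries held 9 counts in all and the dTAGV1 libraries 151. It rose by a log2 fold change of 4.12 ± 0.41 (SE; edgeR, Benjamini-Hochberg adjusted p = 5.73e-09), and the ratio of scaled sums was 18.1, with a 95% interval of 9.28 to 40.3 that covers counting error only. LINC02322 was thus nearly undetected without dTAGV1, and its size of change rests on 1 to 5 counts per DMSO library. Without DMSO replicate 3, which held 5 of the 9 counts, the log2 fold change of LINC02322 was 4.83. LINC01909 (ENSG00000266258, chr18:70335439-70352459, plus strand) was measured at higher counts. Its level was 5.19, 4.34, 2.13 and 2.47 CPM with DMSO and 31.7, 23.6, 33.3 and 32.2 CPM with dTAGV1. It rose by a log2 fold change of 3.09 ± 0.22 (SE; edgeR adjusted p = 1.05e-11), the smallest p among the increases named here. LINC02818 (ENSG00000231966, chr1:179829609-179836124, minus strand) stood at 1.91, 1.69, 1.07 and 2.47 CPM with DMSO and at 12.5, 11.2, 12.4 and 10.4 CPM with dTAGV1. Its log2 fold change was 2.67 ± 0.27 (SE; edgeR adjusted p = 7.63e-09), on 28 counts with DMSO and 167 with dTAGV1.

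LINC01934 is a long gene (ENSG00000234663, chr2:181086076-181409321, plus strand). It was at 4.1, 3.62, 2.67 and 2.97 CPM with DMSO and at 20.1, 17.8, 16.8 and 14 CPM with dTAGV1, a log2 fold change of 2.35 ± 0.22 (SE; edgeR adjusted p = 2.13e-09). All 4 dTAGV1 libraries were at more than 3 times the highest DMSO library. LINC00665, which has been described in several carcinomas (ENSG00000232677, chr19:36313067-36331718, minus strand), was at 1.37, 1.45, 1.07 and 1.73 CPM with DMSO and at 5.95, 6.95, 7.36 and 5.68 CPM with dTAGV1. The log2 fold change was 2.17 ± 0.31 (SE; edgeR adjusted p = 2.04e-06), on 22 counts with DMSO and 93 with dTAGV1. LINC02422 (ENSG00000255760, chr12:31877079-31887203, minus strand) was at 3.55, 2.17, 2.4 and 0.989 CPM with DMSO and at 13.9, 8.16, 10.3 and 8.28 CPM with dTAGV1, with a log2 fold change of 2.15. The groups were further apart than their own spread, although the DMSO libraries of LINC02422 varied among themselves more than 3-fold. LINC02937 (ENSG00000230537, chr9:91104957-91107304, minus strand) was at 1.09, 1.45, 2.93 and 1.98 CPM with DMSO and at 8.79, 6.04, 5.01 and 8.99 CPM with dTAGV1, with a log2 fold change of 1.95. LINC02422 had 35 counts with DMSO and 146 with dTAGV1, and LINC02937 had 29 and 106. For LINC02322, LINC02818, LINC00665, LINC02422 and LINC02937 the mean count with DMSO was under 10.

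The other 3 of the 10 had higher mean counts than those above, LINC01909 excepted. LINC00944 (ENSG00000256128, chr12:126729787-126772411, minus strand) was at 5.19, 6.75, 9.07 and 7.67 CPM with DMSO and at 28.6, 24.2, 26.5 and 24.4 CPM with dTAGV1. Its log2 fold change was 1.85 ± 0.17 (SE; edgeR adjusted p = 2.14e-09), and its 4 dTAGV1 libraries lay close together. LINC01030 (ENSG00000253799, chr8:90592804-90606065, minus strand) was at 8.2, 7.72, 3.74 and 9.15 CPM with DMSO and at 23.8, 24.8, 20.6 and 15.6 CPM with dTAGV1, with a log2 fold change of 1.54. LINC00862 (ENSG00000203721, chr1:200253419-200400705, minus strand) was at 9.02, 5.31, 6.14 and 8.16 CPM with DMSO and at 22.4, 20.2, 19.1 and 20.1 CPM with dTAGV1, with a log2 fold change of 1.52. Both kept every dTAGV1 library above every DMSO library, as the choice of these 10 required.

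Decreases were fewer, but several were as large. LINC03040 fell furthest (ENSG00000181577, chr6:44000580-44005958, plus strand), and GENCODE 29 lists it under the symbol C6orf223 as protein-coding. Its level was 22.7, 8.68, 8.8 and 13.6 CPM with DMSO and 2.27, 0.906, 0.589 and 0.71 CPM with dTAGV1. The log2 fold change was -3.55 ± 0.43 (SE; edgeR adjusted p = 1.11e-06), on 207 counts with DMSO and 16 with dTAGV1. DMSO replicate 1 stood above the other DMSO libraries, and dTAGV1 replicate 1 above the other dTAGV1 libraries. Without dTAGV1 replicate 1, the log2 fold change of LINC03040 was -4.14. LINC02757 (ENSG00000255363, chr11:76607853-76630427, minus strand) was at 21.9, 22.2, 22.9 and 20.3 CPM with DMSO and at 2.27, 1.81, 2.95 and 4.02 CPM with dTAGV1. It fell by 2.93 ± 0.22 on the log2 scale (SE; edgeR adjusted p = 3.24e-11), with little spread within either group. LINC02757 shares 262 exon bases with another gene on the same strand, where reads are counted to neither gene. LINC02964 (ENSG00000286122, chr8:125519907-125680134 in RefSeq on GRCh38) was the most abundant of the 10, at 40.7, 58.1, 48.3 and 47 CPM with DMSO and at 11.3, 8.76, 8.25 and 8.75 CPM with dTAGV1. It fell by 2.39 ± 0.15 on the log2 scale (SE; edgeR adjusted p = 2.03e-12).

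LINC01515 (ENSG00000228065, chr10:65570338-65768835, plus strand) was at 9.84, 12.5, 14.1 and 13.6 CPM with DMSO and at 3.4, 2.11, 5.01 and 3.07 CPM with dTAGV1, a log2 fold change of -1.88 ± 0.25 (SE; edgeR adjusted p = 5.46e-07). LINC01764 (ENSG00000267308, chr19:15827045-15835853, minus strand) was at 12.6, 9.41, 9.07 and 11.6 CPM with DMSO and at 2.83, 3.62, 2.06 and 4.02 CPM with dTAGV1, a log2 fold change of -1.74 ± 0.25 (SE; edgeR adjusted p = 2.39e-06). It overlaps UCA1, a long noncoding gene known from bladder carcinoma, on the opposite strand. UCA1 fell as well, with a log2 fold change of -0.92 (edgeR adjusted p = 8.07e-07). LINC00173 (ENSG00000196668, chr12:116533422-116536518, plus strand) was at 29, 19.3, 15.7 and 16.8 CPM with DMSO and at 6.24, 10.9, 6.19 and 7.33 CPM with dTAGV1, with a log2 fold change of -1.40. LINC01647 (ENSG00000235643, chr1:11609531-11613355, plus strand) was at 6.56, 5.31, 5.6 and 3.71 CPM with DMSO and at 2.55, 0.906, 1.47 and 1.89 CPM with dTAGV1, with a log2 fold change of -1.59. For LINC01647 the nearest libraries of the 2 groups differed by little more than 1 CPM, on 82 counts with DMSO and 25 with dTAGV1.

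The last 3 decreases were of about 2-fold. LINC02894 (ENSG00000261437, chr8:94637285-94639467, minus strand) was at 5.19, 6.75, 4.8 and 5.93 CPM with DMSO and at 2.27, 2.42, 3.83 and 2.13 CPM with dTAGV1, a log2 fold change of -1.10. LINC02894 had 89 counts with DMSO and 38 with dTAGV1. It starts 1.61 kb from the start of ESRP1 on the other strand, an epithelial splicing regulator that also fell, with a log2 fold change of -1.07 (edgeR adjusted p = 8.06e-09). LINC01405 (ENSG00000185847, chr12:110936585-110958208, plus strand) was at 10.4, 6.51, 7.2 and 9.15 CPM with DMSO and at 3.97, 4.53, 4.42 and 2.84 CPM with dTAGV1, a log2 fold change of -1.08. LINC02246 (ENSG00000281903, chr21:14819699-14918552, minus strand) was at 7.92, 9.16, 10.7 and 8.16 CPM with DMSO and at 3.68, 5.14, 5.01 and 4.49 CPM with dTAGV1, a log2 fold change of -0.97. A stretch of 1554 exon bases of LINC02246 overlaps another gene on the same strand, so part of its reads may have been left uncounted.

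**Figure D3:**
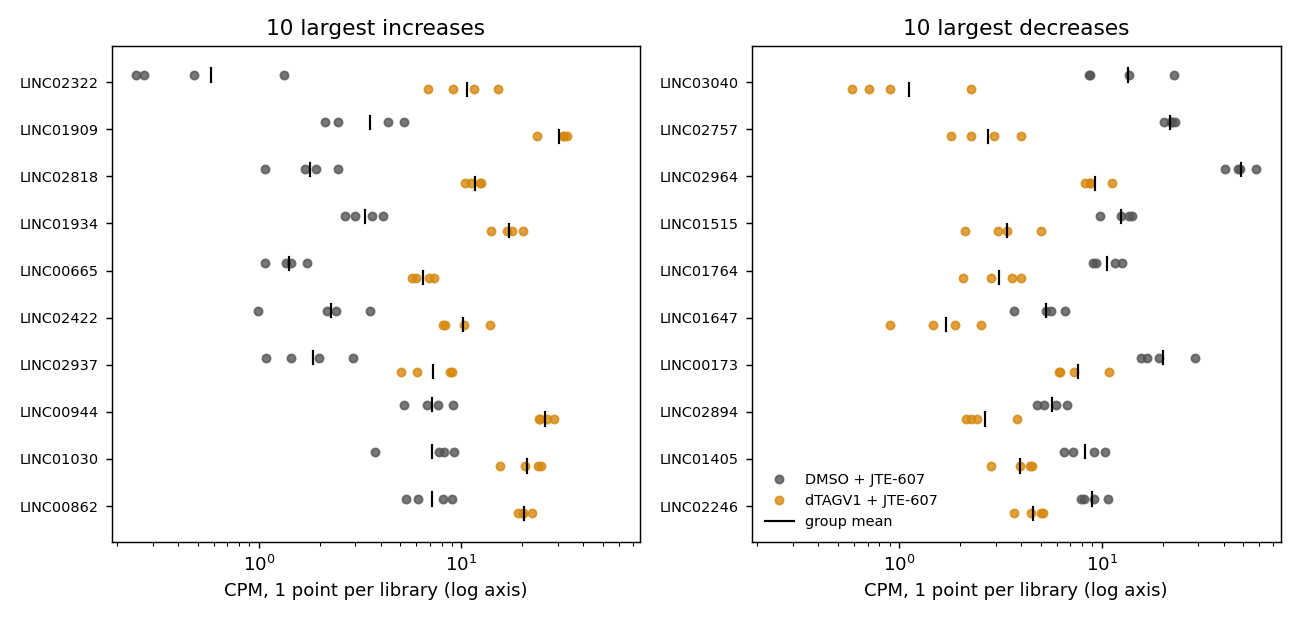
CPM in each library (x axis, log scale, 1 point per library, black bars for group means) of the 10 largest increases (left) and the 10 largest decreases (right) among LINC genes. LINC02322 has all 4 DMSO libraries at or under 1.33 CPM, and LINC02757 has all 4 dTAGV1 libraries at or under 4.02 CPM.

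The 6 genes of highest count were described whatever their change. Counts are of 3′ ends, so no correction for length was made. LINC00342 (ENSG00000232931, chr2:95807118-95816215, minus strand) was at 75.1, 73.3, 74.4 and 79.1 CPM with DMSO and at 76.5, 128, 135 and 133 CPM with dTAGV1. Its log2 fold change of 0.65 ± 0.15 passed the test (SE; edgeR adjusted p = 0.0017), but dTAGV1 replicate 1 lay within the DMSO range. LINC01234 (chr12:113679459-113773683, minus strand) was at 76.2, 98.4, 99.8 and 92 CPM with DMSO and at 89.6, 101, 97.5 and 104 CPM with dTAGV1. These groups overlapped, with a log2 fold change of 0.10 ± 0.09 (SE; edgeR adjusted p = 0.383). LINC02935 (chr10:112888735-112906111, plus strand) was at 86.6, 79.3, 63 and 83.3 CPM with DMSO and at 96.9, 134, 97.8 and 104 CPM with dTAGV1, a log2 fold change of 0.47 ± 0.11 (SE; edgeR adjusted p = 0.000872).

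LINC00511, a cancer-associated transcript described in breast and lung tumours (ENSG00000227036, chr17:72290091-72640472, minus strand), showed the clearest change of the abundant genes. It was at 47.5, 43.9, 48.6 and 46.7 CPM with DMSO and at 116, 123, 101 and 105 CPM with dTAGV1. The log2 fold change was 1.25 ± 0.09 (SE; edgeR adjusted p = 2.61e-11). LINC00662 (chr19:27684580-27793940, minus strand) was at 50, 53.5, 50.7 and 57.4 CPM with DMSO and at 72, 64.9, 73.9 and 78 CPM with dTAGV1, a smaller log2 fold change of 0.45 ± 0.09 (SE; edgeR adjusted p = 0.000236). LINC00630 (chrX:102769161-102885406, plus strand) was at 38.3, 57.2, 42.7 and 51.2 CPM with DMSO and at 37.7, 46.8, 47.7 and 52 CPM with dTAGV1, and the groups overlapped (log2 fold change -0.04 ± 0.12, SE; edgeR adjusted p = 0.802). Of the 6, LINC00342, LINC02935, LINC00511 and LINC00662 were thus called higher, and LINC01234 and LINC00630 were not called.

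Other genes were picked because their symbols are known from studies of single transcripts. LINC00963, first described in prostate cancer cells (chr9:129483451-129513686, plus strand), was at 26, 26.3, 25.3 and 29.4 CPM with DMSO and at 32.9, 30.5, 37.1 and 31 CPM with dTAGV1 (log2 fold change 0.29 ± 0.12, SE; edgeR adjusted p = 0.042). The call of LINC00963 was lost when any of DMSO replicates 1, 2 and 3 and dTAGV1 replicates 1, 3 and 4 was left out, with edgeR adjusted p from 0.0518 to 0.168, and under DESeq2 with an adjusted p of 0.0922. LINC01138 (chr1:148290889-148519604, minus strand) was at 18.6, 19.5, 17.6 and 21.3 CPM with DMSO and at 24.1, 32, 24.2 and 25.1 CPM with dTAGV1 (log2 fold change 0.45 ± 0.14, SE; edgeR adjusted p = 0.00878). Without dTAGV1 replicate 2, the highest library, LINC01138 had a log2 fold change of 0.33 and an edgeR adjusted p of 0.0542. LINC00467 (chr1:211382803-211435333, plus strand) was at 41, 51.4, 44 and 44.3 CPM with DMSO and at 43.1, 40.5, 38.9 and 40.9 CPM with dTAGV1, and it did not pass the test (log2 fold change -0.15, edgeR adjusted p = 0.243). LINC00324 was at 16.4, 18.6, 15.7 and 11.9 CPM with DMSO and at 13.3, 19.3, 11.8 and 14.9 CPM with dTAGV1 (log2 fold change -0.08, edgeR adjusted p = 0.73). LINC00467 and LINC00324 each had overlapping groups.

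LINC00294 was at 9.84, 10.9, 16.5 and 14.3 CPM with DMSO and at 7.65, 8.76, 10 and 13.2 CPM with dTAGV1 (log2 fold change -0.36, edgeR adjusted p = 0.144). Without dTAGV1 replicate 4, its highest dTAGV1 library, LINC00294 had a log2 fold change of -0.56 and an edgeR adjusted p of 0.0336. LINC00265 was at 4.92, 7.72, 6.14 and 6.18 CPM with DMSO and at 10.2, 9.36, 8.54 and 6.86 CPM with dTAGV1 (log2 fold change 0.47, edgeR adjusted p = 0.0794). Without dTAGV1 replicate 4, its lowest dTAGV1 library, LINC00265 had a log2 fold change of 0.56 and an edgeR adjusted p of 0.0489. The untested LINC00339 was at 4.1, 4.58, 4.27 and 2.23 CPM with DMSO and at 2.27, 2.72, 1.18 and 1.42 CPM with dTAGV1. These values of LINC00339 overlapped, with 3 of the 4 DMSO libraries above all dTAGV1 libraries.

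Other noncoding classes were set beside the LINC genes. Of 229 tested genes with antisense symbols, 113 were called (49.3%), 71 higher (31%) and 42 lower (18.3%), with a median log2 fold change of 0.15. Of 42 host genes of small nucleolar RNAs and microRNAs, 24 were called (57.1%), 15 higher (35.7%) and 9 lower (21.4%), with a median of 0.13. Over all tested genes 57.9% were called, 29.4% higher and 28.5% lower. Lower calls were thus below the share over all genes in these classes too. The LINC genes had a median of 0.37, with 60 higher and 15 lower calls. Among the 108 with a mean of at least 10 in both groups, the median was 0.33, with 47 higher and 12 lower. That limit was not applied to the other classes, and the difference from them was not tested. Factors that end transcription or degrade noncoding RNA in the nucleus were counted from a list of 28, of which 27 were tested. Of these, 17 were called (63%, against 57.9% of all tested genes), 10 higher and 7 lower, with a median log2 fold change of -0.01. RBM7, an RNA-binding subunit of the nuclear exosome targeting complex, rose by a log2 fold change of 1.38 ± 0.10 (SE; edgeR adjusted p = 3.49e-11). PABPN1, the nuclear poly(A)-binding protein, rose by 1.36 ± 0.28 (SE; edgeR adjusted p = 0.000175), and NCBP2, the small subunit of the cap-binding complex, by 0.82 ± 0.08 (SE; edgeR adjusted p = 1.01e-08). WDR82, a partner of the ZC3H4 termination factor, fell, with a log2 fold change of -0.67 ± 0.08 (SE; edgeR adjusted p = 8.64e-08). INTS11, the nuclease of the Integrator complex, also fell, with a log2 fold change of -0.64 ± 0.12 (SE; edgeR adjusted p = 9.07e-05). Genes of this list moved in both directions.

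The position of each gene was read from GENCODE 29, which held 130 of the 136. It types 105 of them as lincRNA, 12 as processed transcripts, 7 as antisense and 2 as protein-coding (LINC03040 and LINC02693). The word intergenic did not hold for all: 36 of the 130 overlap another gene on the same strand, and 63 overlap a gene on the opposite strand, some of them both. For the counts below each gene was put in 1 class, in the order given, and the 36 came first. The next 10 start within 2 kb of the start of a gene on the other strand, called head to head here. Another 29 start within 10 kb after the end of a gene on the same strand, called tandem here, 24 of the rest overlap a gene on the opposite strand, and 31 lie apart. Higher and lower calls were 16 and 2 among those with same-strand overlap, 13 and 2 among tandem genes, 4 and 2 among head-to-head genes, 8 and 5 among those with opposite-strand overlap, and 16 and 3 among those apart. The median log2 fold change was 0.49 for genes apart, 0.46 with same-strand overlap, 0.32 in tandem, 0.13 with opposite-strand overlap and -0.14 head to head. Over all tested genes put in the same classes, 24.8% (head to head) to 30.6% (same-strand overlap) were higher and 26.3% to 32.5% lower, with medians of -0.05 to 0.04. The differences between classes were not tested, and the head-to-head class holds only 10 genes. Genes that rose had a median span of 16.19 kb and those that fell 9.285 kb, against 15.72 kb for those not called.

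Reads that run past the end of a gene can be counted to a LINC gene downstream on the same strand, so the upstream neighbour was set beside each LINC gene. Within 10 kb, 21 pairs had both genes tested. Both genes were called in 10 pairs, and they moved the same way in 5 and opposite ways in 5. Over all tested genes in this arrangement, both were called in 671 of 1865 pairs, and 55.6% of these moved the same way. The median log2 fold change was 0.77 for the 21 LINC genes and 0.10 for their upstream neighbours. Across the 21 pairs, which share libraries and are not independent replicates, Pearson's r was -0.08 and Spearman's rho -0.02, given as a description. LINC01909 lies 5.24 kb after SOCS6, a suppressor of cytokine signalling, which rose as well (log2 fold change 1.05, edgeR adjusted p = 4.54e-10). LINC00511 lies 5.48 kb after SLC39A11, a zinc transporter, with a log2 fold change of 0.89 (edgeR adjusted p = 6.68e-08). LINC00665 lies 2.73 kb after ZFP14, which rose as well (log2 fold change 0.67, edgeR adjusted p = 0.0045). By contrast, LINC01934 lies 9.49 kb after UBE2E3, a ubiquitin-conjugating enzyme, which fell (log2 fold change -1.90, edgeR adjusted p = 1.08e-10). LINC02818 lies 3.84 kb after TOR1AIP2, which also fell, with a log2 fold change of -0.44 (edgeR adjusted p = 8.94e-06). LINC00862 lies 4.24 kb after ZNF281, which was not called (log2 fold change 0.11, edgeR adjusted p = 0.318). Beyond 10 kb, LINC01030 lies 15.93 kb after TMEM64, which fell, with a log2 fold change of -1.56 (edgeR adjusted p = 4.46e-09). LINC02322 lies 24.15 kb after PPM1A, which fell too (-0.62, edgeR adjusted p = 0.000154). LINC00342 lies 20.7 kb after ANKRD36C, which rose (0.77, edgeR adjusted p = 4.43e-08). LINC01138 lies 11.78 kb after NBPF14, which also rose (0.50, edgeR adjusted p = 0.0277). The named increases thus had upstream neighbours that rose, that fell and that were not called.

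Among the 7 head-to-head pairs with both genes tested, both were called in 3. Besides LINC02894 and ESRP1, LINC00938 rose (log2 fold change 0.74) beside ARID2, a subunit of a chromatin remodelling complex, which rose as well (0.77, edgeR adjusted p = 2.9e-08). LINC00205 fell (-0.70) beside POFUT2, a fucosyltransferase that rose (0.72, edgeR adjusted p = 0.000458). Of the 9 pairs that overlap on opposite strands, both genes were called in 2, and in both pairs they moved the same way. On the same strand, LINC01278 rose (1.03) where it overlaps SPIN4, which fell (-3.35, edgeR adjusted p = 3.68e-10). LINC00294 was not called (-0.36) where it overlaps TCP11L1, which rose (1.28, edgeR adjusted p = 7.58e-07). Genes at 1 locus thus moved together in some pairs and apart in others.

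**Figure D4:**
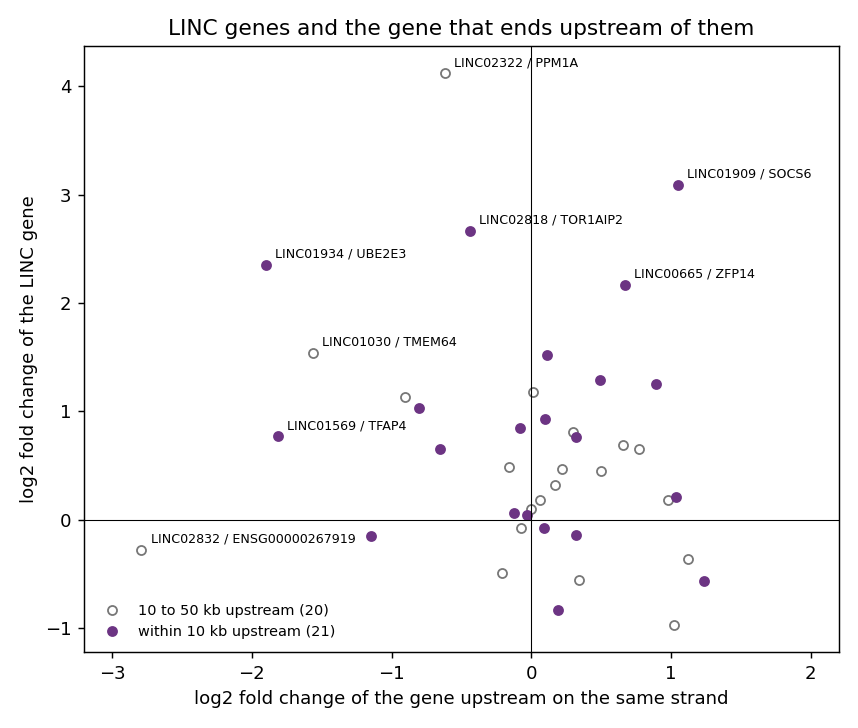
Log2 fold change of each LINC gene (y axis) by that of the gene that ends upstream of it on the same strand (x axis), with filled points for pairs within 10 kb and open points for 10 to 50 kb. Points lie in all 4 quadrants, with SOCS6 and LINC01909 both higher and UBE2E3 lower where LINC01934 was higher.

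Counts on the opposite strand of the LINC genes were a readout that the choice of genes did not use. They were a median of 0.369% of the sense counts, and 15 of the genes had enough to be tested. Of these, 8 were called, 6 higher and 2 lower, against 48.4% of all genes tested on that strand. The 5 genes called on both strands moved the same way on both, but the sense calls of LINC02405 (edgeR adjusted p = 0.0441) and LINC01504 (0.0382) were lost under DESeq2, library-size scaling and no filter, among other settings. The sense call of LINC02405 was also lost without any 1 library except dTAGV1 replicate 2, and that of LINC01504 without DMSO replicate 1 or 3 or any of dTAGV1 replicates 1, 2 and 4. LINC01504 had 111, 112, 102 and 96 opposite-strand counts with DMSO and 230, 197, 271 and 308 with dTAGV1 (log2 fold change 1.23, edgeR adjusted p = 1.54e-09), and its sense count rose by a log2 fold change of 0.81. LINC01764 had 123, 181, 153 and 133 opposite-strand counts with DMSO and 70, 53, 65 and 107 with dTAGV1, where UCA1 lies, with a log2 fold change of -1.03. LINC01128 had 56, 57, 46 and 43 opposite-strand counts with DMSO and 134, 133, 91 and 120 with dTAGV1 (log2 fold change 1.22, edgeR adjusted p = 2.13e-07). LINC00115 overlaps LINC01128 there and rose (log2 fold change 0.95), while the sense count of LINC01128 did not pass the test (0.32, edgeR adjusted p = 0.0623). For LINC00513, LINC01504, LINC01764, LINC01473 and LINC00881, opposite-strand counts exceeded sense counts, and in such loci the 2 strands may belong to different transcripts.

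Sequence shared with other annotated genes limits a few of the values. Of the last 500 bases of each gene's annotated transcripts, cut into words of 31 bases, at least 50% also occurred in another gene for LINC00623 (74.9%), LINC01106 (63.7%), LINC00115 (60.9%), LINC00265 (52.9%) and LINC00342 (50.3%). Where the other gene lies elsewhere, reads from such stretches map to more than 1 place and are lost. Where it overlaps on the same strand, they map once but fit more than 1 gene. The search did not tell these cases apart, and in both the levels of such genes are uncertain. LINC02246, among the named decreases, was just under this limit at 49.2%, and 30 genes shared at least 10%, among them LINC00665 (29.5%) and LINC02757 (20.7%). LINC02246 and LINC02757 are genes with same-strand exon overlap, so part of their shared words may be of that kind. For 55 of 130 genes no such word was shared. Without the 5 genes, 56 of 125 were higher and 15 lower, a comparison chosen after seeing the data.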

How the data were processed

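Poly(A) RNA from 8 HCT116 samples was measured, 4 in each group, grouped by the treatment in their titles. Trizol extraction was followed by the Lexogen QuantSeq FWD V2 kit, per the labels' protocols. The authors deposited raw read counts for each gene. FastQC, fastp, STAR, HTSeq, DESeq2 and GRCh38 are named in the submitters' processing notes. The layout is that of STAR's per-gene output. Versions, the gene annotation and the use of molecular identifiers are not given in the sources used here, so counting error alone may understate the error of a value.

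Sense-strand counts were analysed, since the kit keeps the strand of the RNA. Totals of reads given to no gene (unmapped, multimapped, no gene on the sense strand, or more than 1 gene) were 56.7% to 62.8% of reads per library. They stayed out of library sizes and tests of genes. Symbols came from a table that held 61481 of the 78932 identifiers. Coordinates are from GENCODE 29 on GRCh38, counted from 1, which may not be the authors' annotation, and from RefSeq for 5 genes. LINC00888 had no coordinates.

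Differences were tested with edgeR 4.0.16 (R 4.3.3), using filterByExpr, TMM scaling, robust quasi-likelihood F tests and Benjamini-Hochberg adjustment over all 12618 tested genes, at a threshold of 0.05. CPM are TMM-scaled counts per 1000000. Positive log2 fold changes mean higher with dTAGV1. On simulated counts over 12440 genes, the test recovered 89 of 98 genes changed by 1 on the log2 scale and 100 of 100 changed by 2, with 15 false calls. Far fewer genes were changed there than were called in the data. Genes of all counts were pooled, so recovery among genes as low as most LINC genes was not measured. Figures used matplotlib 3.10.9.

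The text names the 10 largest increases and decreases with an adjusted p under 0.05 and no overlap between groups, the 6 genes of highest count, a list of genes known by name, and the genes nearest the threshold. Neighbours of these were named, and genes singled out by their neighbours, opposite strand, shared sequence or place in a list were picked with their values in view. The members, the lists and the marker genes were chosen with earlier results of these data known. Sequence, position and level of the members were described without tests. Alternatives were DESeq2 1.42.0, limma-voom (limma 3.58.1), RLE and library-size scaling, other filters, unstranded counts, non-robust dispersions, a replicate term, and leaving out each library. Leaving out genes with shared 3′ ends, or with more opposite-strand than sense counts, was chosen after seeing the data.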

Additional observations from a re-analysis of the deposited data

Results flagged for a closer look

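Among 66 groups of 4 libraries examined, 5 had a library set apart from the other 3 by more than Dixon's 95% critical value, where chance gives about 1 in 20 groups. All 5 were in dTAGV1 libraries. LINC00342 was at 76.5 CPM in replicate 1 and at 128 to 135 CPM in the other 3. LINC02964 was at 11.3 CPM in replicate 1 and at 8.25 to 8.76 CPM in the others. LINC01138 was at 32 CPM in replicate 2 against 24.1 to 25.1 CPM, and LINC01909 at 23.6 CPM in replicate 2 against 31.7 to 33.3 CPM. LINC02894 was at 3.83 CPM in replicate 3 against 2.13 to 2.42 CPM.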

How the results depend on the processing

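Under a filter of at least 100 mean counts, 9 of 15 members were called, 7 higher and 2 lower, with a median log2 fold change of 0.11, and 4120 genes in all, 2131 higher and 1989 lower. The median was 0.29 with library-size scaling, where 53 members were higher and 19 lower and the median of all genes shifted by -0.075. It was 0.33 without a filter, 0.33 with means of at least 10 in both groups, 0.33 without genes that share 3′ ends, and 0.31 without same-strand overlaps. With a term for the replicate number as a block, 74 members were called, 59 higher and 15 lower; deviations of same-numbered libraries correlated at 0.193, -0.107, 0.0677 and 0.0568, so the numbers were not taken to pair the libraries. When each library was left out in turn, 68 to 74 members were called, 54 to 59 higher and 14 to 18 lower, with medians of 0.33 to 0.45; genes called in all were 6861 to 7232 (3382 to 3680 higher, 3396 to 3683 lower), and members called on the opposite strand were 8 each time. The difference in reads that fit no gene on the sense strand was 3.63 to 4.82 percentage points and that in mitochondrial reads 1.37 to 1.76 (exact permutation test, adjusted p = 0.0571 for both without DMSO replicate 1 or 4, 0.0286 otherwise). TGTA was in 22.3% of windows of 50 bases. LINC00630 (range -0.13 to 0.06) turned to 0.06 without DMSO replicate 2 and to 0.04 without dTAGV1 replicate 1, and LINC00324 (range -0.23 to 0.01) to 0.01 without DMSO replicate 2 and to 0 without dTAGV1 replicate 3; neither was called. Of 521 values for 32 named genes, 504 kept direction and call. Low counts limit most members.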
